A study of Mus musculus with 21 samples.

Results

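A group of 10 genes that encode proteins of the secondary (specific) and tertiary (gelatinase) granules of neutrophils were followed through 7 fractions of mouse bone marrow cells. They are Ltf, Camp, Lcn2, Ngp, Mmp8, Mmp9, Chil1, Chil3, Retnlg and Cd177. They were chosen by gene symbol, through the RefSeq accession of each array probe, and all 10 were found among the 18217 distinct symbols on the array. They had 12 probes in all (Ltf and Mmp9 had 2 each), and the brightest probe of each gene was used. All 12 passed the filter on dim probes.

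The cells came from the bone marrow of C57BL/6 mice, untreated as far as the labels say, and 3 arrays were made of each fraction. KLS cells (lin- ckit+ sca1+) are the most immature. On the erythroid side, PreMegE cells were labelled CD150+, CD105- and negative for Fc gamma receptors, CFUe cells CD150-, CD105- and receptor negative, and Ter119 cells CD71+ Ter119+. On the myeloid side, PreGM cells were labelled with the same markers as CFUe, GMP cells CD150- and receptor positive, and Mac1Gr1 cells Mac1+ Gr1+. The labels list ckit and sca1 as positive for all 5 progenitor fractions, and lin stood for B220, CD3, CD4, CD8, CD41, Mac1, Gr1 and Ter119. They name no lineage exclusion for the Ter119 and Mac1Gr1 fractions, and give neither the age or sex of the mice nor whether animals were pooled. Levels are log2 intensities relative to the 75th percentile of the same array, so that 0 is a probe as bright as that percentile and a difference of 1 is 2-fold.

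Neutrophils make their granules in order. The primary granules, with myeloperoxidase and elastase, form in promyelocytes, the secondary granules in myelocytes and metamyelocytes, and the tertiary granules later still, so that the transcripts of a granule mark the stage at which it is loaded. Secondary granules carry proteins that bind iron or its carriers and antimicrobial peptides, and tertiary granules carry enzymes that digest matrix. In bone marrow these genes are used as markers of maturing granulocytes, and C/EBP factors are known regulators of several of them.

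A pair of letter patterns were searched in the 250 bases before the annotated start of each gene, on both strands. These were TTGCNNAA, a form of the C/EBP site, and AGATAA, the core of the GATA site, and the patterns do not overlap in the windows printed. RefSeq windows of the GRCm38.p6 assembly were at hand for 9 of the 10 genes (not Mmp9). TTGCNNAA was found in 5 of the 9 windows and in 9.56% of 32851 windows of the same length. AGATAA was found in 2 of the 9, Ltf and Chil3, and in 9.99% of all windows. A match is a run of letters and no measured binding. The 5 windows with TTGCNNAA are printed 5' to 3' on the strand of the gene because they hold the letters that recur among the genes, and Camp is printed as a gene without either pattern. Capitals mark the matches. The windows lie at chr9:111019042-111019291 (+ strand) for Ltf, chr2:32387740-32387989 (- strand) for Lcn2, chr9:110419558-110419807 (+) for Ngp, chr9:7558179-7558428 (+) for Mmp8, chr16:48872358-48872607 (+) for Retnlg and chr9:109849457-109849706 (-) for Camp. The capitals begin 75 bases before the start for the C/EBP form in Ltf and 32 bases before it for AGATAA. They begin 216 bases before the start in Lcn2, 138 and 11 in Ngp, 19 in Mmp8 and 246 in Retnlg.
Ltf: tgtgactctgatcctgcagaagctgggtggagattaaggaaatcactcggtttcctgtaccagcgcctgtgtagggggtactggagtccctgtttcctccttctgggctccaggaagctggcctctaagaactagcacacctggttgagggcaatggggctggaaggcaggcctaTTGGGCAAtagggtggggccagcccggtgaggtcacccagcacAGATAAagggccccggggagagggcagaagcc
Lcn2: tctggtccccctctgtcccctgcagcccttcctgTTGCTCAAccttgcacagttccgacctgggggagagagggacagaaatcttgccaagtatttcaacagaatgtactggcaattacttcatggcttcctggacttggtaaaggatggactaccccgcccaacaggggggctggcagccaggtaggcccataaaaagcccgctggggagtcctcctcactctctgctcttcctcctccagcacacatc
Ngp: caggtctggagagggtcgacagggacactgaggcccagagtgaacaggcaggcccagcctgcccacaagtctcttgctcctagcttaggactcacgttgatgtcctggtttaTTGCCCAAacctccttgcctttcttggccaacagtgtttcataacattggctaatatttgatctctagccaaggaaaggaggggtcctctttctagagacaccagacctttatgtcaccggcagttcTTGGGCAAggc
Mmp8: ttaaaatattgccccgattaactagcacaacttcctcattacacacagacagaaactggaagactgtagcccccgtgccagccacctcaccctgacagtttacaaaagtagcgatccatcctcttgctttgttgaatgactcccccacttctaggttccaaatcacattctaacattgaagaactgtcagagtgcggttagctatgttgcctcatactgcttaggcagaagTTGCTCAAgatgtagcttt
Retnlg: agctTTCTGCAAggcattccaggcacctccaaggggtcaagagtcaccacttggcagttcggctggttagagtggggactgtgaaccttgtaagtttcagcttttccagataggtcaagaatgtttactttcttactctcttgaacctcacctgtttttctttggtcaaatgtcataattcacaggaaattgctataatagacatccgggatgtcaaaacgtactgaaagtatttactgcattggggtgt
Camp: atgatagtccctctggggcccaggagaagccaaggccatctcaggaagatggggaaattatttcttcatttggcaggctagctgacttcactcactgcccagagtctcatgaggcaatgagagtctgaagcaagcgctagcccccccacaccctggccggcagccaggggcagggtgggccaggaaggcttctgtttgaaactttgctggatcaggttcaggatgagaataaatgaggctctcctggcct

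Several arrays differed in ways that the fractions do not explain. Y-linked transcripts (Ddx3y, Eif2s3y, Kdm5d, Uty) were present on 11 arrays and Xist on the other 10. All KLS, PreMegE and Ter119 arrays and replicate 3 of CFUe and of PreGM were of the first kind, and CFUe and PreGM replicates 1 and 2 with all GMP and Mac1Gr1 arrays of the second. Ddx3y lay between 1.17 and 1.93 on the first and between -7.73 and -6.17 on the second, while Xist lay between -7.47 and -4.47 and between 3.90 and 5.61. Replicate 3 of PreGM was at least 2-fold above both other PreGM arrays for 5 of the 10 granule genes and for 1.48% of all tested probes, and replicate 3 of CFUe for 7 of the 10 and for 4.78%. Several of the results that rest on these arrays are given with and without them. The arrays lay on 9 slides, had 56.4% to 77.4% of probes well above background, and held no saturated spot.

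**Figure D1:**
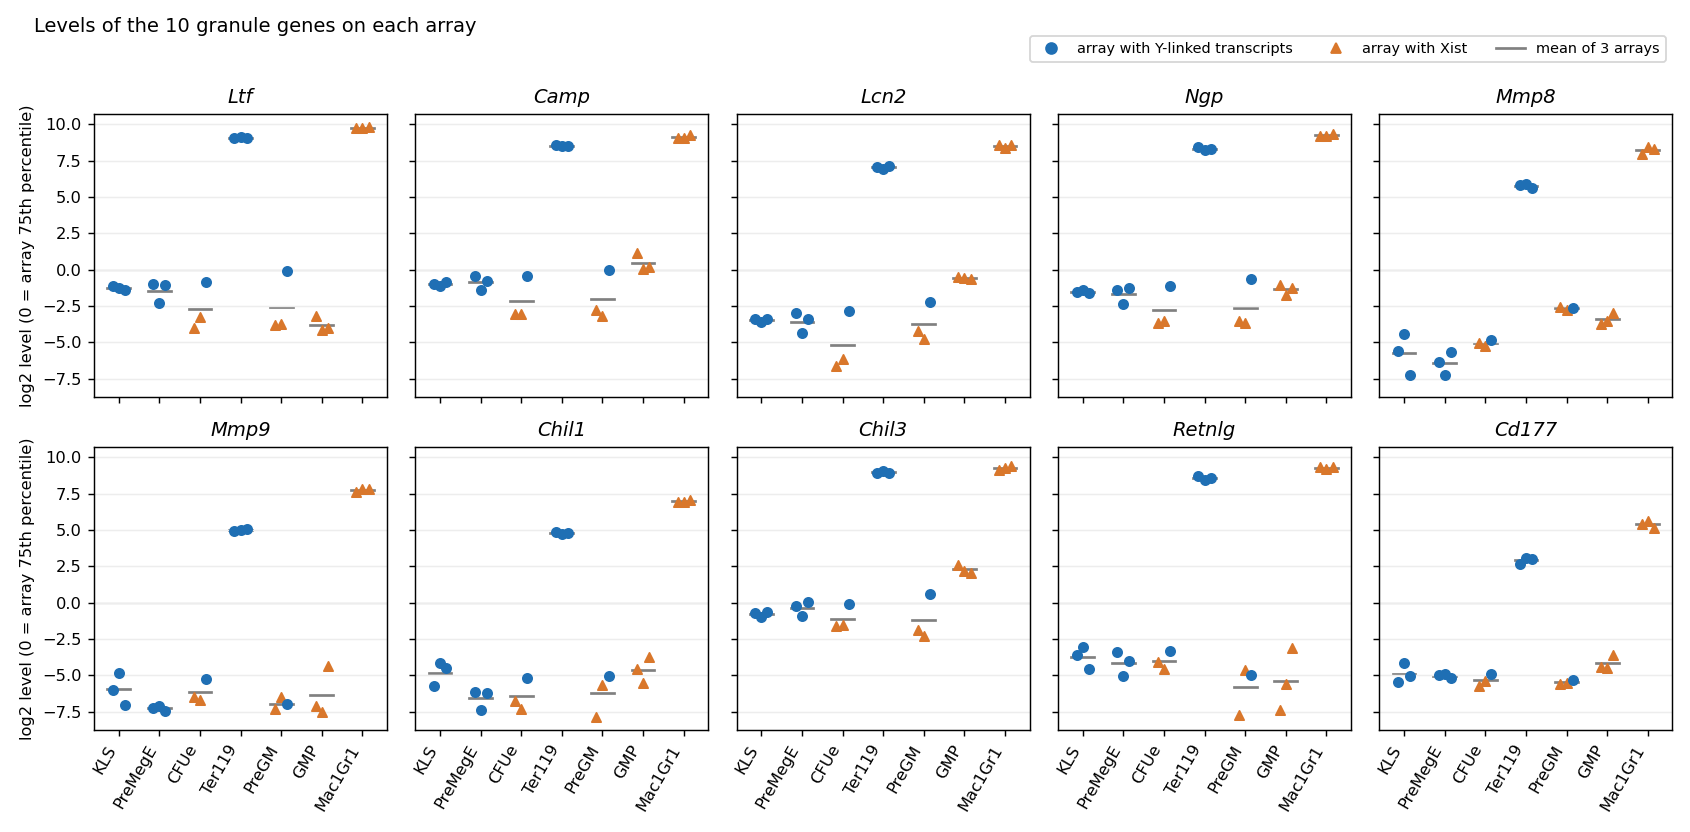
Level of each granule gene (log2 intensity relative to the 75th percentile of the array) on each of the 21 arrays, by fraction. Circles are arrays with Y-linked transcripts, triangles arrays with Xist, and grey bars the mean of 3 arrays. Ter119 and Mac1Gr1 stand above all progenitor arrays in every panel. The CFUe and PreGM circles lie above the triangles of their fraction for Ltf, Camp, Lcn2, Ngp and Chil3. They do so too for Chil1 and Cd177, which were not well above background on any PreGM array.

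Each of the 10 genes was higher in Mac1Gr1 than in GMP cells, and the arrays of the 2 fractions did not overlap for any of them, as for the 40.8% of all probes whose Mac1Gr1 arrays all lay above those of GMP. The differences ran from 6.99 (Chil3) to 14.64 (Retnlg) on the log2 scale with a median of 11.10, against a median of 0.17 over all tested probes. All 10 were called (limma with Benjamini-Hochberg adjustment over 29532 probes, adjusted p under 0.05 and at least 2-fold). Over all probes, 56.7% were called in this comparison and 29.1% were called higher. RNA of sorted fractions was measured in bulk, so that fewer cells of a kind and less RNA per cell cannot be told apart here or in any comparison that follows.

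Ltf encodes lactoferrin, the iron-binding protein of the secondary granule. Its level was 9.72, 9.72 and 9.80 on the Mac1Gr1 arrays and -3.19, -4.13 and -4.00 on the GMP arrays. The Mac1Gr1 arrays lay close together, and all GMP arrays lay below those of KLS, where Ltf was at -1.15, -1.28 and -1.37. The difference of 13.52 ± 0.81 (SE, n = 3 arrays a fraction) between Mac1Gr1 and GMP is 11756-fold (limma, adjusted p = 9.18e-11). Under other processing, described below, it ran from 11.49 to 13.81.

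Camp encodes the precursor of cathelicidin, an antimicrobial peptide. It was at 9.07, 9.08 and 9.26 in Mac1Gr1 and at 1.17, 0.05 and 0.18 in GMP, a difference of 8.67 ± 0.70 (406-fold, limma adjusted p = 4.93e-09). Unlike Ltf, Camp was above its KLS level (-0.97, -1.13 and -0.87) on each GMP array. Lcn2 encodes lipocalin 2, which binds the siderophores by which bacteria take up iron. It was at 8.56, 8.36 and 8.61 in Mac1Gr1 and at -0.49, -0.59 and -0.63 in GMP, a difference of 9.08 ± 0.73. Ngp encodes neutrophilic granule protein, a member of the cystatin superfamily related to cathelicidins. Its values were 9.20, 9.22 and 9.34 in Mac1Gr1 and -1.04, -1.76 and -1.25 in GMP, a difference of 10.60 ± 0.67. All 4 of these genes were well above background on every GMP array.

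Both metalloproteinase genes were called higher in Mac1Gr1 as well. Mmp8, neutrophil collagenase of the secondary granule, was at -3.74, -3.55 and -2.95 in GMP and at 7.96, 8.42 and 8.31 in Mac1Gr1, a difference of 11.64 ± 0.49 (limma adjusted p = 1.24e-12). Mmp9, the gelatinase after which the tertiary granule is named, was at -7.13, -7.54 and -4.38 in GMP. Only 1 of these 3 arrays was well above background, whereas all 3 Mac1Gr1 arrays were, at 7.62, 7.80 and 7.80. The fitted difference of 14.09 ± 0.64 therefore rests on a GMP level that was measured on 1 array.

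The chitinase-like proteins Chil1 and Chil3 bind but do not cleave chitin. Chil3 had the smallest of the 10 differences and Chil1 a difference close to the median. Chil3 was already at 2.62, 2.16 and 2.07 in GMP and rose to 9.14, 9.26 and 9.41 in Mac1Gr1, a difference of 6.99 ± 0.54 (127-fold, limma adjusted p = 2.89e-09). Chil1 went from -4.57, -5.53 and -3.75 to 6.94, 6.95 and 7.07, a difference of 11.61 ± 0.67.

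Retnlg, which encodes the resistin-like molecule gamma, had the largest fitted difference at 14.64 ± 0.87. Its GMP arrays ranged widely, at -7.36, -5.61 and -3.12, and 1 of them was well above background. Its Mac1Gr1 arrays were at 9.32, 9.17 and 9.33. Cd177 encodes a surface antigen of neutrophils that is stored in the secondary granule. It was at -4.43, -4.48 and -3.62 in GMP and at 5.39, 5.62 and 5.13 in Mac1Gr1, a difference of 9.56 ± 0.30 (752-fold, limma adjusted p = 3.77e-14).

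The comparison of GMP with PreGM asked which of the genes were higher at the preceding step. Of the 10, 4 were called higher in GMP and none lower, in a comparison that called 10.4% of all probes, 4.01% as higher and 6.36% as lower. Chil3 rose by 3.47 ± 0.54 (11.1-fold, limma adjusted p = 1.41e-04), Lcn2 by 3.14 ± 0.73 (8.81-fold, adjusted p = 0.00414) and Camp by 2.47 ± 0.70 (5.52-fold, adjusted p = 0.0148). Cd177, which was not well above background on any PreGM array, was at least 2.12-fold higher in GMP (adjusted p = 0.0034). The other 6 were not called. Their differences ran from -1.22 (Ltf) to 1.26 (Ngp), apart from Chil1, which was at least 1.57-fold higher in GMP (adjusted p = 0.0922). Camp lost the call without PreGM replicate 1, PreGM replicate 2 or GMP replicate 1 (limma adjusted p of 0.0728, 0.0869 and 0.0727) and in a fit of these fractions alone (adjusted p = 0.0979). Camp and Lcn2 lost it in the fit with slides as blocks (adjusted p of 0.099 and 0.0583), and Cd177 lost it under another background correction, at 0.21 (adjusted p = 0.32).

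These values depended on the PreGM array with Y-linked transcripts. Camp was at -2.80 and -3.17 on PreGM replicates 1 and 2 and at -0.02 on replicate 3, Lcn2 at -4.19, -4.75 and -2.19, and Chil3 at -1.88, -2.26 and 0.59. Replicate 3 lay above both others for each of these genes, but below all 3 GMP arrays. Ngp (-3.53, -3.64 and -0.65) and Ltf (-3.79, -3.75 and -0.12) on replicate 3 were above every GMP array. Without PreGM replicate 3, a fit in which all arrays of GMP and PreGM carried Xist, 6 of the 10 genes were called higher in GMP, the added genes being Ngp at 2.23 (limma adjusted p = 0.0059) and Chil1 (adjusted p = 0.0345). No PreGM array was well above background for Chil1, and its bound with all arrays, at least 1.57-fold, is under the fold that a call needs. Against PreGM replicates 1 and 2 alone, Chil3 was 4.36, Lcn2 3.90 and Camp 3.45 higher in GMP, while Ltf differed by -0.00.

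**Figure D2:**
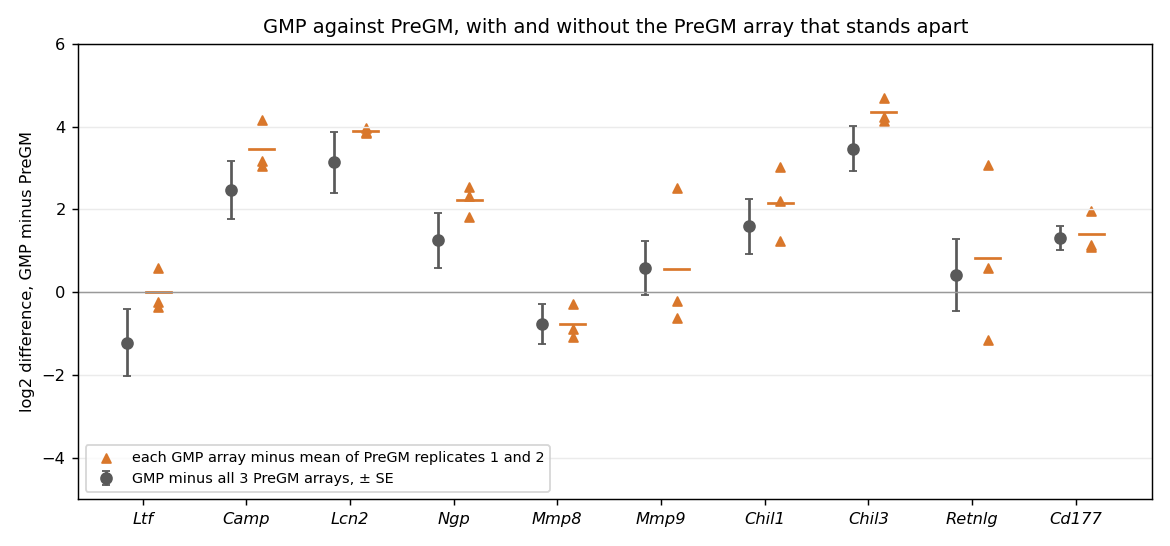
Difference in log2 level between GMP and PreGM for each granule gene. Grey points are the fitted difference from all 3 PreGM arrays with its SE, triangles are single GMP arrays minus the mean of PreGM replicates 1 and 2, and bars are the means of the triangles. Chil1, Cd177 and Mmp9 were not well above background on any PreGM array. Chil3, Lcn2, Camp, Ngp, Chil1 and Cd177 lie above 0 on all triangles, Ltf, Mmp9 and Retnlg lie on both sides of 0, and all 3 Mmp8 triangles lie below it.

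Among the progenitor fractions, Mmp8 alone of the 10 genes had its highest mean in PreGM. It was the single gene of the 10 that was called in PreGM against KLS, a comparison that called 8.64% of all probes, 2.11% as higher and 6.53% as lower. Its level was -2.54, -2.76 and -2.63 in PreGM and -5.60, -4.39 and -7.22 in KLS, where 1 of 3 arrays was well above background. The difference was 3.09 ± 0.49 (8.53-fold, limma adjusted p = 2.59e-04), and the call held under each of the 33 alternatives run. PreGM replicate 3 did not stand apart for this gene, at 0.02 above the mean of the other 2 arrays. In GMP its 3 arrays, -3.74, -3.55 and -2.95, lay below those of PreGM, as they did for 21.8% of all probes, but the difference of -0.77 ± 0.49 was not called (limma adjusted p = 0.289).

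The other 9 genes were not called in PreGM against KLS, with differences from -2.07 (Retnlg) to -0.24 (Lcn2), although Retnlg was called lower without GMP replicate 3. Without PreGM replicate 3, however, 4 of them were called lower in PreGM than in KLS, as were 1968 of all 29532 probes. The 4 genes were Ltf at -2.51 (limma adjusted p = 0.00798), Ngp at -2.05 (adjusted p = 0.0108), Camp (adjusted p = 0.0194) and Chil3 at -1.30 (adjusted p = 0.0168). All KLS arrays carried Y-linked transcripts and both remaining PreGM arrays carried Xist, so that the fraction and the kind of sex-chromosome transcripts cannot be told apart in that fit.

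Among the 12 arrays of KLS, PreMegE, CFUe and PreGM, the 8 arrays with Y-linked transcripts lay above the 4 with Xist for 4 of the 10 genes (Ltf, Camp, Ngp and Chil3), with no overlap, as they did for 1.96% of all tested probes. Ltf was between -2.26 and -0.12 on the 8 arrays and between -3.99 and -3.24 on the 4, and Camp between -1.38 and -0.02 and between -3.17 and -2.80. The other 6 genes overlapped. GMP arrays, which all carried Xist, were not part of this count. Their means of 0.47 for Camp and 2.28 for Chil3 lay above all 8 arrays with Y-linked transcripts (at most -0.02 and 0.59). For Ngp the GMP mean of -1.35 lay within the range of those 8, and for Ltf it was -3.77. The 4 arrays with Xist were all of CFUe and PreGM, so that fraction and kind of transcripts are partly mixed in this split. On the erythroid side none of the 10 was called in PreMegE against KLS (limma, 12.4% of probes called, 8.86% as lower), where Chil1 alone had an unadjusted p under 0.05. Chil1 was not well above background on any PreMegE array and was at least 1.64-fold lower there (adjusted p = 0.0607). In CFUe against PreMegE (24.7% of probes called, 9.96% as higher and 14.7% as lower) Mmp8 was called higher by 1.38 (adjusted p = 0.0277), but only 1 CFUe array and no PreMegE array was well above background for it, so that the rise was at least 1.32-fold. That call was lost without PreMegE replicate 1 or 2 or CFUe replicate 1 or 3 (limma adjusted p of 0.0518 to 0.143). Without CFUe replicate 3, Camp (-2.19), Ltf (-2.16), Ngp (-1.94) and Lcn2 were called lower in CFUe, as were 4644 of all 29532 probes. Neither remaining CFUe array was well above background for Lcn2, so that no size is given for it. Both remaining CFUe arrays carried Xist and all PreMegE arrays Y-linked transcripts, and the fraction and the kind of transcripts cannot be told apart in that fit. CFUe replicate 3 also exceeded both other CFUe arrays 2-fold for 4 of 14 other genes of the same granules, 6 of 8 primary granule, 5 of 11 neutrophil, 5 of 6 monocyte, 3 of 8 B cell and 0 of 12 erythroid genes. PreGM replicate 3 did so, in the same order of lists, for 0 of 14, 2 of 8, 5 of 11, 0 of 6, 1 of 8 and 1 of 12. The part of other cells in these values was not tested.

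The Ter119 fraction held all 10 transcripts at high level. Each gene was called higher in Ter119 than in CFUe, by a fitted 8.26 (Cd177) to 12.56 (Retnlg) with a median of 11.11, in a comparison in which 57.2% of all probes were called and 29.2% called higher. The arrays of the 2 fractions did not overlap for any of the 10, and all Ter119 arrays lay above those of CFUe for 38.0% of all probes. Ltf was at 9.02, 9.09 and 9.08 in Ter119 and at -3.99, -3.24 and -0.84 in CFUe. The rise was 11.76 ± 0.81 (3459-fold, limma adjusted p = 5.94e-10), and the Ter119 arrays varied far less than the CFUe arrays. Without CFUe replicate 3 the rise was 12.68 for Ltf, 11.59 for Camp and 11.92 for Ngp.

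Camp reached 8.57, 8.53 and 8.48 in Ter119, Ngp 8.41, 8.25 and 8.28, and Lcn2 7.07, 6.90 and 7.16. Lcn2 was well above background on 1 CFUe array only, replicate 3 at -2.87. Mmp9 (4.90, 4.99 and 5.03 in Ter119) and Chil1 (4.85, 4.75 and 4.77) did not stand well above background in CFUe on any array, and were at least 916-fold and at least 808-fold higher in Ter119 (limma adjusted p = 6.35e-11 and 8.9e-11). Retnlg was at 8.73, 8.45 and 8.54 in Ter119 and at -4.10, -4.55 and -3.30 in CFUe. On the 1 slide that held arrays of both fractions, all 10 genes were higher in Ter119, by 8.75 to 13.75. The only other within-slide pairs were of GMP and PreGM and of CFUe and PreMegE. In the first, 9 of 10 genes were higher in GMP, all but Mmp8, but neither array was well above background for Mmp9 or Retnlg. In the second, 2 of 10 were higher in CFUe, Mmp8 and Mmp9. Neither array of that pair was well above background for Mmp8, Mmp9 or Chil1. The shares over all probes were not computed for these within-slide counts. No slide held both Ter119 and Mac1Gr1.

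Against Mac1Gr1, each of the 10 genes was lower in Ter119, and for each gene the 3 arrays of Ter119 lay below the 3 of Mac1Gr1, as they did for 36.2% of all probes. Of these differences, 4 were called, in a comparison that called 41.9% of probes and 19.9% as lower. Mmp9 was lower by 2.77 ± 0.64 (limma adjusted p = 0.00117), Mmp8 by 2.46 ± 0.49 (adjusted p = 3.36e-04), Cd177 by 2.46 ± 0.30 (adjusted p = 1.58e-06) and Chil1 by 2.20 ± 0.67 (adjusted p = 0.00798). The Ter119 level was thus 14.7% of that in Mac1Gr1 for Mmp9, 18.2% for both Mmp8 and Cd177, and 21.8% for Chil1. Chil1 lost the call in the fit with slides as blocks, at -1.97 (adjusted p = 0.136).

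The remaining genes were closer in the 2 fractions. The Ter119 level was 81.1% of the Mac1Gr1 level for Chil3, 65.5% for Camp, 62.4% for Ltf, 61.5% for Retnlg, 52.1% for Ngp and 36.2% for Lcn2. None of these 6 differences was called, with adjusted p from 0.0882 (Lcn2) to 0.638 (Chil3) in limma. Lcn2 and Ngp were called lower with spike-in scaling (limma adjusted p of 0.00525 and 0.0217) and with the normexp correction (adjusted p of 1.41e-05 and 0.0408). Of all 29532 probes, 11481 were called lower with spike-in scaling, against 5877 without it. The median difference over probes moved from 0.06 to -0.67. The normexp correction called 3886 probes lower, with a median of 0.25. With the kind of sex-chromosome transcripts as a block 5 of the 6 were called lower, all but Retnlg, with Ltf at -3.90 and Camp at -3.42. No share of all probes is given for that fit, so that this count is not read as a result about these genes. Only CFUe and PreGM held arrays of both kinds, so that the block effect was estimated from their arrays alone. It was then carried over to Ter119 and Mac1Gr1, whose own arrays cannot give it. The spread used with and without this block came from all 7 fractions, and included the CFUe and PreGM arrays that stood apart. Without CFUe replicate 3 Lcn2 was called too (adjusted p = 0.0109), and in a fit of Ter119 and Mac1Gr1 arrays alone it was called at -1.47 (adjusted p = 1.21e-04). All Ter119 arrays carried Y-linked transcripts and all Mac1Gr1 arrays Xist, so that the fraction and the kind of sex-chromosome transcripts cannot be told apart in this comparison.

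**Figure D3:**
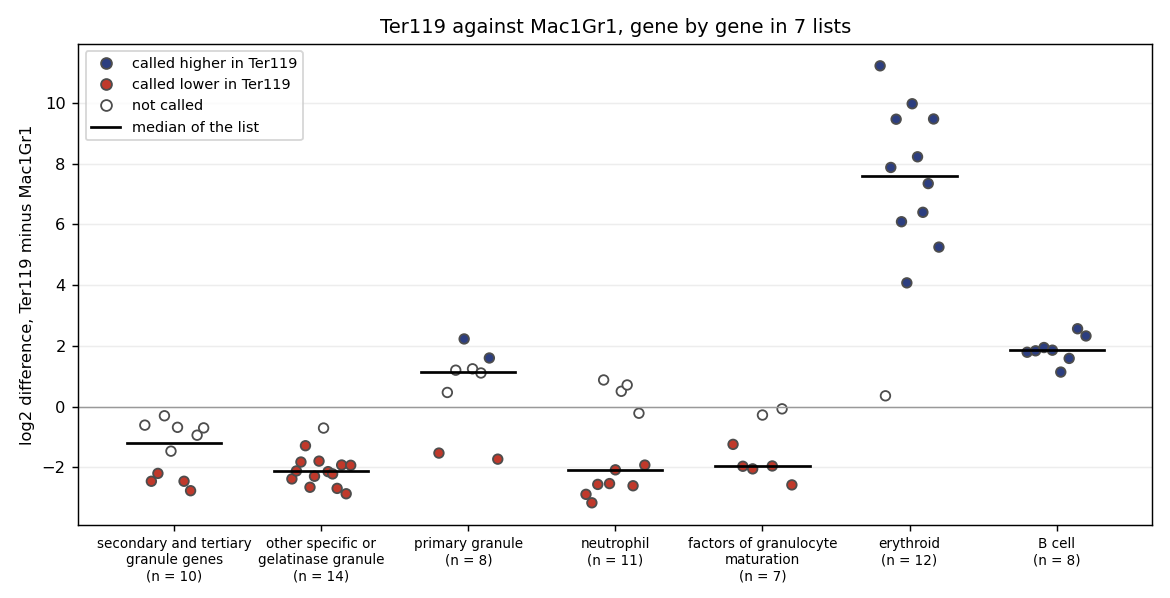
Difference in log2 level between Ter119 and Mac1Gr1 for each tested gene of 7 lists, with the median of each list as a bar. Filled points were called by limma, blue as higher and red as lower in Ter119. The 10 granule genes lie between -2.77 and -0.30, 13 of 14 other granule genes are called lower, and 11 of 12 erythroid and all 8 B cell genes are called higher.

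The Ter119 fraction also held markers of its label and of other cells. The summed level of 12 erythroid genes, on a linear scale on which 1 is the 75th percentile, was 3645 to 4559 on the Ter119 arrays, 408 to 418 on the CFUe arrays and 10.1 to 13.6 on the Mac1Gr1 arrays. The sum of 11 neutrophil genes was 2920 to 4099 in Ter119 and 2545 to 2939 in Mac1Gr1, against 4.22 to 23.4 in CFUe, and all 11 were well above background in Ter119. The sum of the 10 granule genes was 2323 to 2405 in Ter119 and 4164 to 4574 in Mac1Gr1. All 11 neutrophil genes were called higher in Ter119 than in CFUe, and 7 of them were called lower than in Mac1Gr1 and none higher. The sum of 8 B cell genes was 181 to 262 in Ter119 and 36.6 to 64.7 in Mac1Gr1, and all 8 were called higher in Ter119, as were 22.0% of all probes. Monocyte genes summed to 292 to 339 in Ter119 and 560 to 687 in Mac1Gr1, and eosinophil, basophil or mast cell genes to 50.9 to 81.3 and 15.5 to 27.6. Gene by gene the 6 monocyte genes were mixed, with 1 called higher and 2 lower in Ter119. Their differences ran from -1.43 to 2.03 with a median of 0.64. Whether these cells or their RNA had a part in the Ter119 values of the granule genes was not tested.

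The last myeloid and the last erythroid step share no arrays, and the difference between them was tested directly. Of the 10 genes, 4 differed at an adjusted p under 0.05, as did 55.0% of all probes. Chil3 and Lcn2 rose less from GMP to Mac1Gr1 than from CFUe to Ter119, by 3.08 ± 0.77 (limma adjusted p = 0.00262) and a fitted 3.18 ± 1.03 (adjusted p = 0.0155). The size for Lcn2 rests on a CFUe level that was well above background on 1 array. Cd177 rose more over the myeloid step, by 1.29 ± 0.42 (adjusted p = 0.0153), with 1 CFUe array well above background. Mmp9 had a fitted difference of 2.97 ± 0.91 (adjusted p = 0.0108), but no CFUe array and 1 GMP array were well above background for it, so that neither the size nor the direction of its difference can be read. With the slide as a block none of the 4 passed (limma adjusted p from 0.0789 to 0.257). Under normexp Lcn2 was at -0.53 and lost the call (adjusted p = 0.247), and with spike-in scaling Cd177 was at 0.63 and lost it (adjusted p = 0.321). Camp passed without CFUe replicate 3, at -2.92 (limma adjusted p = 0.00806), and without PreGM replicate 3 (adjusted p = 0.0267). Retnlg passed without GMP replicate 3 (limma adjusted p = 0.0148). Neither remaining GMP array was well above background for Retnlg, so that no size is given for it.

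**Figure D4:**
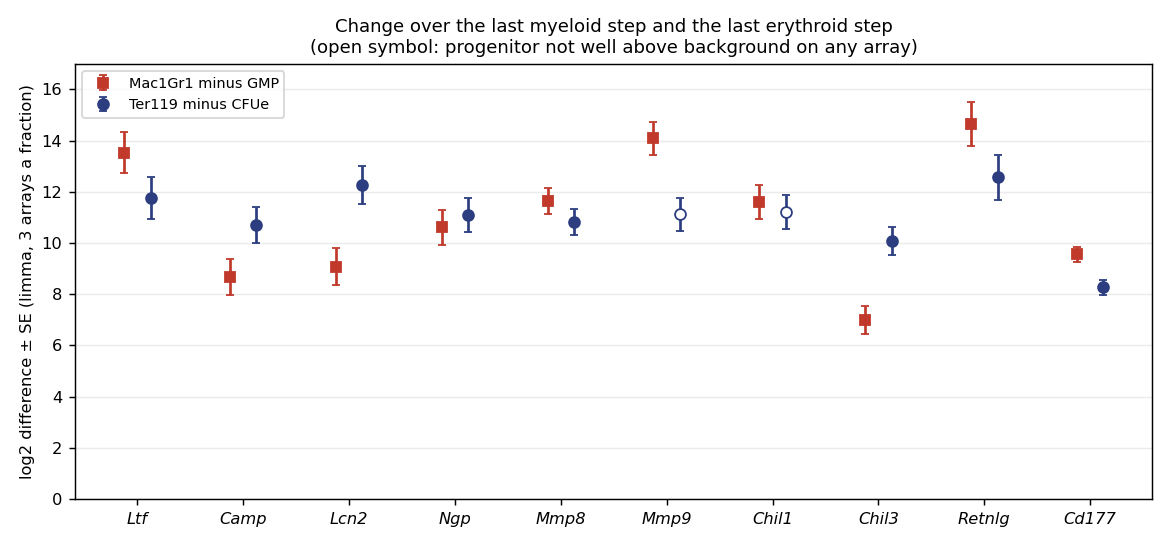
Fitted log2 difference with its SE for each granule gene, from GMP to Mac1Gr1 (squares) and from CFUe to Ter119 (circles). Open symbols mark a gene that was not well above background on any array of the progenitor. All 20 differences lie between 6.99 and 14.64.

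Other proteins of the same granules were followed through a list of 14 tested genes. All 14 were called higher in Mac1Gr1 than in GMP, by 1.17 (Hvcn1, a proton channel) to a fitted 13.78 (Fpr2, a formyl peptide receptor) with a median of 5.15, and 7 were called higher and 1 lower (Adam8, at -1.16) in GMP than in PreGM. Fpr2 and Mmp25, a membrane-type metalloproteinase, were not well above background on any GMP array, so that their rises were at least 5533-fold and at least 478-fold. Pglyrp1, which binds bacterial peptidoglycan, and Hp, haptoglobin, had risen from PreGM to GMP, by 3.84 and 2.93. In Ter119 against Mac1Gr1, 13 of the 14 were called lower, with a median of -2.13, against a median of -1.20 for the 10 granule genes and 0.06 for all probes.

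The 8 primary granule genes ran the other way at the last step. None was called higher and 5 were called lower in Mac1Gr1 than in GMP, with a median of -4.64, in a comparison that called 27.6% of all probes lower. Elane, neutrophil elastase, fell by 6.96, Prtn3, proteinase 3, fell by 6.77 and Mpo, myeloperoxidase, fell by 3.97. In GMP against PreGM 5 of the 8 were called higher, Elane by 4.11. In Ter119 against Mac1Gr1, Elane (2.23) and Prtn3 (1.60) were called higher and Srgn and Cd63 lower, so that the Ter119 fraction was above Mac1Gr1 in these 2 transcripts of the primary granule and below it in Mmp8, Mmp9, Chil1 and Cd177.

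Among 7 factors of granulocyte maturation, 4 were called higher and 3 lower in Mac1Gr1 than in GMP. Cebpd rose by 3.12, Cebpb by 2.15, Spi1 by 1.89 and Klf5 by 5.07, while Gfi1 fell by 2.05, Cebpa by 1.64 and Runx1 by 1.08. Cebpd and Cebpb were also called higher in GMP than in PreGM, by 1.20 and 1.05. In Ter119 against Mac1Gr1, 5 of the 7 were called lower, Cebpd by 2.05 and Cebpb by 1.96 among them, and none higher.

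The 10 genes resembled each other over the 21 arrays, with Pearson correlations of 0.924 to 0.995 over the 45 pairs (median 0.970). These correlations are a description, since the points share arrays and their scaling, and 2 of the 7 fractions are far above the other 5 for every gene. Of 14285 genes compared, those most like the mean profile of the 10 were Itgb2l (r = 0.994), Cstdc5, Cstdc4, Stfa1, Stfa2l1, Chil4, Bst1, Gsn, Sirpb1a and Il1rn (r = 0.984). Itgb2l, an integrin chain, and Stfa1 stand on the neutrophil list too. Itgb2l was at 7.14 ± 0.02 (SD, n = 3) in Mac1Gr1, 5.06 ± 0.01 in Ter119 and -2.83 ± 0.28 in GMP. Cstdc5, Cstdc4, Stfa1 and Stfa2l1 belong to the stefin A family of cysteine protease inhibitors on chromosome 16. Chil4 is the neighbour of Chil3 on chromosome 3 and a close copy of it, and whether probes of such close copies share signal was not tested.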

How the data were processed

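RNA of 7 sorted bone marrow fractions, 3 arrays each, was hybridised to 1-colour (Cy3) Agilent arrays after synthetic spike-ins were added, per the labels. The deposited values of each array are spot intensities that the authors extracted with Agilent Feature Extraction 10.7.1.1, which subtracts background and detrends the array, with no scaling between arrays. The deposited table of the whole series holds log2 values that the authors had normalized between arrays, with LIMMA per the study's methods and settings not given in the sources used here, and it served as an alternative only. The probe annotation names the mm9 build.

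Control and outlier spots (80 to 283 an array) were left out, spots of a probe were averaged, and the log2 processed signal was set against the array's own 75th percentile. Probes were named through their RefSeq accession, which gave a symbol to 26690 of 41174 probes (64.8%), and a gene with several probes was read by the brightest. Probes were kept if every array of some fraction had them well above background, and these 29532 were tested with limma 3.58.1 (R 4.3.3) in 1 fit over the 7 fractions, with Benjamini-Hochberg adjustment. The median residual SD over probes was 0.262, with 14 degrees of freedom. A call needed an adjusted p under 0.05 and at least 2-fold; the difference between the last steps needed the adjusted p only. A probe not well above background on any array of 1 fraction is given as "at least N-fold", against the higher of its own signal and the lowest signal well above background on each array. Such a bound holds for the scaling to the 75th percentile only. Errors are SD over 3 arrays or the SE of the fit. The labels do not say that arrays came from separate animals, so that p-values measure the spread between arrays, which may be technical, and the number of arrays limits the precision. Tested on simulated data for Mac1Gr1 against GMP over 29532 probes, the fit recovered 177 of 200 probes changed by 2 on the log2 scale (88.5%), with 3 false calls. The simulated noise was independent between arrays and had no slides or arrays that stand apart. Far fewer probes were changed than were called in the real comparison, so that these figures give no error rate for it.

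The members and gene lists, and the rule by which further genes were named (lists by counts and a few examples, and the 10 genes most like the mean profile of the members), were chosen with earlier results of these data known. Alternatives changed the scaling (quantile or spike-ins), the background correction (normexp), the filter, the minimum fold, the probe, the source of values, the blocks (slide, replicate number) and the arrays in the fit. Tables were read with Python 3.11.15 and pandas 2.3.3 and drawn with matplotlib 3.10.9.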

Additional observations from a re-analysis of the deposited data

Results flagged for a closer look

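The difference between the last myeloid step (GMP to Mac1Gr1) and the last erythroid step (CFUe to Ter119) passed its own test for 4 of the 10 granule genes and for 55.0% of all probes. As the first step minus the second on the log2 scale, it was -3.18 for Lcn2 and -3.08 for Chil3, whose GMP levels of -0.57 ± 0.07 and 2.28 ± 0.29 (SD, n = 3) stood above their CFUe levels of -5.21 ± 2.04 and -1.10 ± 0.85. It was 1.29 for Cd177, which, like Lcn2, was well above background on 1 CFUe array only. The fitted value was 2.97 for Mmp9, which was well above background on 1 GMP array and no CFUe array, so that its size and direction cannot be read.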

How the results depend on the processing

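All 10 genes were called higher in Mac1Gr1 than in GMP and in Ter119 than in CFUe under every alternative run, from 10 to 10 with each array left out in turn. Leaving out single arrays gave 3 to 6 calls for GMP against PreGM (4 with all arrays), 1 to 5 for PreGM against KLS (1), 0 to 1 for PreMegE against KLS (0), 0 to 4 for CFUe against PreMegE (1), 4 to 5 for Ter119 against Mac1Gr1 (4) and 4 to 5 for the difference between the last steps (4). In PreMegE against KLS, Chil1 was called lower without KLS replicate 1, CFUe replicate 3 or PreGM replicate 1 or 3, Mmp8 without KLS replicate 3 and Mmp9 without GMP replicate 3. CFUe against PreMegE had 3 calls without PreGM replicate 3 and 2, Mmp8 and Mmp9, without GMP replicate 3. No PreMegE array was well above background for Chil1, Mmp8 or Mmp9, and no CFUe array for Mmp9. The call of Mmp9 in CFUe against PreMegE thus rests on no measured level. Shares of all probes are not given here for the fits with single arrays left out. Spike-in scaling gave 5 calls for PreGM against KLS (4 of them lower), 7 for GMP against PreGM, 2 for PreMegE against KLS, 3 for CFUe against PreMegE and 6 for Ter119 against Mac1Gr1. It moved the median of all probes from 0.17 to -1.86 for Mac1Gr1 against GMP, with 1896 probes called higher and 20671 lower. For GMP against PreGM the median moved from -0.02 to 0.99, with 14021 of 29532 probes called higher. Probes called lower were 5408 for PreGM against KLS, 4062 for PreMegE against KLS, 7235 for CFUe against PreMegE and 11481 for Ter119 against Mac1Gr1. The normexp correction gave 0 calls for CFUe against PreMegE, 6 for Ter119 against Mac1Gr1 and 7 for the difference between the last steps. Of all 29532 probes it called 2043 higher and 2057 lower, 3284 and 3886, and 8888 and 6117, in the same order. The slide as a block gave 2 for GMP against PreGM, 0 for CFUe against PreMegE and 0 for the difference between the last steps. Of all probes it called 1180 higher and 1827 lower, 2963 and 4222, and 6589 and 6061, in that order. A pair of alternatives was chosen after seeing the data, and no shares of all probes are given for them. With replicate 3 of both CFUe and PreGM left out there were 6 calls for PreGM against KLS, 1 for PreMegE against KLS and 5 for CFUe against PreMegE. With the kind of sex-chromosome transcripts as a block there were 2, 1 and 0 for these, 9 for Ter119 against Mac1Gr1, and the difference between the last steps for Ngp turned from -0.49 to 1.31. That block effect was estimated only from CFUe and PreGM, the fractions that held arrays of both kinds. The cause of these changes was not tested.

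Replicate numbers did not pair the arrays, since the deviations of same-numbered arrays correlated at -0.368 to 0.369 over 21 pairs. The replicate block gave 1 call for PreMegE against KLS and 2 for CFUe against PreMegE. Levels not well above background, as for Mmp9 and Chil1 in CFUe, limit the size of the differences that rest on them.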
